A study of Hordeum vulgare with 8 samples.

Results

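AK355215 is a barley transcript annotated as a cytokinin oxidase/dehydrogenase, and it was chosen with its allele differences between the lines already known. Its sites were found by the identifier alone. It is 1 of 40344 transcripts with a site in the variant table, and all 9 sites listed under this identifier are described here, whatever their filter value. The table was made from RNA of shoot apices at Waddington stage 5.5, the stage at which the first awns emerge. The plants were near isogenic lines (NILs) with mostly Morex alleles, although the paper also assigns many of their genes to wild barley introgressions. The greenhouse gave long days of 16 h at 22 °C, with nights of 8 h at 18 °C. e35RM, with long awns, carries the allele of the cultivar Morex at the awn length QTL AL7.1, and e35RD, with short awns, carries an introgression from the wild barley HID382 (D) there. Both lines come from the same heterogeneous inbred family, DM1-e35R, and both are fixed for the wild allele of the row-type gene vrs1. Each line is thus a single derived genotype, and apices of several plants were pooled before RNA extraction.

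Each line had 4 libraries, 8 in all, which stand in 1 column per line. No value has a replicate error for this reason, and a difference between the lines could not be compared with the spread between libraries. Of 140560 sites in the table, 39013 were used, which are SNP sites with the authors' filter passed and a read depth of 5 or more in both lines, and all tests were adjusted over these. The read depth is the number of reads at a site after removal of duplicates. Intervals are exact binomial (Clopper-Pearson) intervals at the 95% level, which hold only the error of counting reads. Nothing in the table tests the identity of the tissue.

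Cytokinin oxidases/dehydrogenases are flavoproteins that degrade cytokinins irreversibly by cleaving off their side chain. They consist of a part that binds the cofactor FAD and a part that binds the cytokinin. In cereals, cytokinin levels in the inflorescence are known to affect the number of spikelets and grains, and a gene of this family controls grain number in rice. The annotations of AK355215 do not all give the same member of the family. The list of variants names it cytokinin oxidase/dehydrogenase 3, while the best match in Arabidopsis is named cytokinin oxidase 7, so a family number is not used below. The listed matches are LOC_Os08g35860.1 in rice, Bradi3g37690.1 in Brachypodium and Sb07g022530.1 in sorghum. AK355215 is a high confidence (HC) gene placed at 132.649 cM on chromosome 7H of the POPSEQ map. This position is inside the segregating region, listed from 132.011 to 134.207 cM, and 1.275 cM below the position of the flanking marker 2_0483, so it lies outside the fine-mapped interval of AL7.1.

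The 9 changes are written with the reference base, the position, counted from 1 at the transcript's 5′ end, and the other base. They are G325A, C338T, C399T, C450T, C597T, C863G, C904T, G906C and C978T, and they span 653 bases. All 9 passed the authors' filter, and the lowest read depth in either line was 25. At 6 of them e35RM was homozygous for the reference base and e35RD for the other base. These polymorphic sites are G325A, C338T, C399T, C863G, G906C and C978T. At C450T, C597T and C904T both lines were homozygous for the reference base. No site was non-reference in e35RM, and no heterozygous call was made in either line.

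The 6 polymorphic sites were those called by the allele depth test. This was a two-sided Fisher's exact test of the reads with each allele, and a call needed an adjusted p below 0.05 and shares of non-reference reads no higher than 0.1 in one line and no lower than 0.9 in the opposite line. Over all sites tested, 0.126% were called with e35RD non-reference and 0.128% in either direction. Opposite homozygous calls were found at 0.261% of the sites in this direction and at 0.408% in either direction. The lines were selected for opposite alleles at AL7.1 on the same chromosome arm, so that differences in its vicinity follow from the design. The tests describe the sequenced pools of reads and not independent plants. They use the same reads as the genotype calls, so they are no separate evidence for the allele differences.

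The first group of polymorphic sites lies in the part of the transcript that encodes the FAD-binding domain. At G325A, the reference base was found in 26 reads of e35RM and the other base in 25 reads of e35RD (adjusted p = 4.9e-12, Fisher's exact test). This was the shallowest site of the gene in both lines. At C338T, 13 bases further, e35RM had 32 reference reads and e35RD 26 non-reference reads (adjusted p = 5.9e-14, Fisher's exact test). At C399T these numbers were 40 and 41 reads (adjusted p = 1e-20, Fisher's exact test). No read of e35RM had the other base and no read of e35RD the reference base at these 3 sites, so the reads of the lines did not overlap in allele.

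The second group lies in the part that encodes the cytokinin-binding domain, 464 bases after the first group. C863G was the deepest site of the gene when the lines are added up, where e35RM had 62 reference reads and e35RD 58 non-reference reads (adjusted p = 2.4e-31, Fisher's exact test). At G906C, all 53 reads of e35RM were reference reads and all 61 reads of e35RD non-reference reads (adjusted p = 6.7e-30, Fisher's exact test). Here too the alleles of the lines did not overlap. At C978T, e35RM had 37 reference reads, while e35RD had 47 non-reference reads and 1 reference read (adjusted p = 4.5e-20, Fisher's exact test). This single read, 2.08% of 48 reads (0.0527 to 11.1%), was the only one at the 9 sites that did not carry the called allele of its line.

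**Figure D1:**
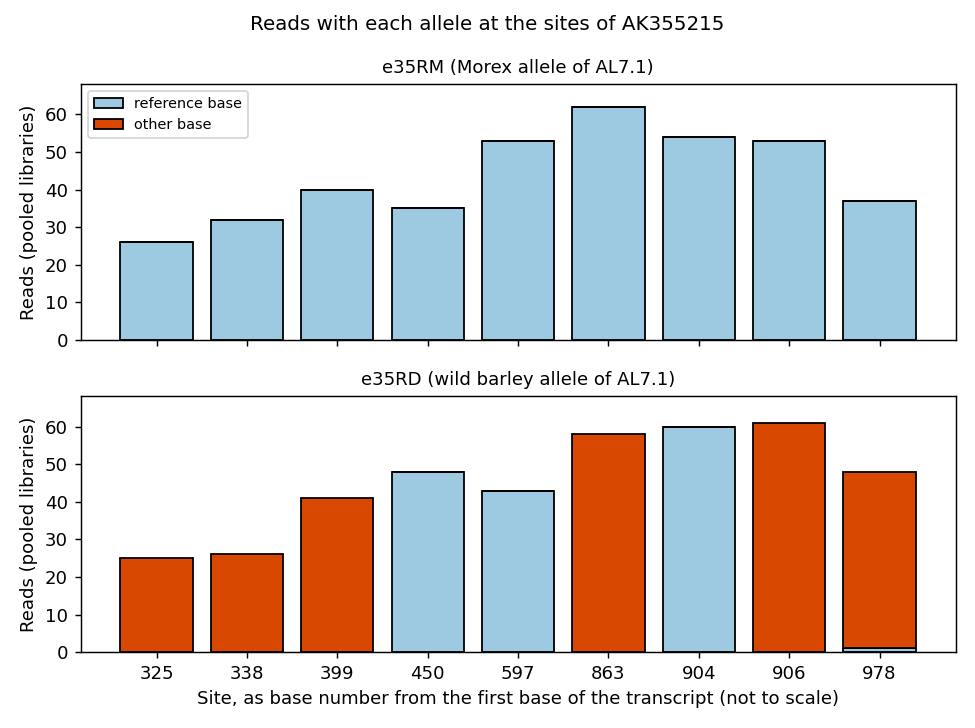
Bars show the number of reads with the reference base and with the other base at the 9 sites of AK355215 (site as base number from the first base of the transcript) in e35RM (top) and e35RD (bottom), with the libraries of a line pooled. All reads of e35RM carry the reference base, and e35RD has the other base at 6 sites, with 1 reference read at C978T.

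The 3 sites without a difference lay between the polymorphic ones. At C450T, 35 reads of e35RM and 48 reads of e35RD carried the reference base. At C597T, 53 and 43 reads did, and at C904T, 54 and 60 reads. None of these reads had the other base. Over the whole table, 27.2% of the sites used had the reference base in both lines. Why such sites are listed cannot be seen from the values of the NILs. C904T lies 2 bases before the polymorphic G906C, with 54 and 53 reads in e35RM and 60 and 61 reads in e35RD, so that most reads are likely to cover both sites and the sites are not independent.

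A count of 0 reads with an allele allows a share of up to 3 reads of the depth. For e35RM this limit ranged from 4.84% at C863G to 11.5% at G325A, and for e35RD from 4.92% at G906C to 12% at G325A. A share of the other allele below this limit could have been missed. The genotype quality, a phred-scaled score of the caller that ends at 99, reached 99 in both lines at 7 sites. It was 78 in e35RM and 75 in e35RD at G325A, and 93 and 78 at C338T.

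The genotype likelihoods of the caller are not limited in this way. They are phred-scaled and give how much less likely another genotype is than the called one. For a heterozygous genotype the value lay between 78 and 184 in e35RM and between 75 and 184 in e35RD. Divided by read depth, it was 2.1 at C978T in e35RD, the site with a reference read, and 2.84 at the same site in e35RM. At the other 8 sites it lay between 2.91 and 3.02 in both lines. For the opposite homozygous genotype the value was at least 1090 in e35RM and at least 986 in e35RD. Thus the call with the least support in both lines was that at G325A, and no read there carried a second allele.

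The changes were compared by their kind and by their annotated effect on the protein. Of the 6 polymorphic sites, 4 are transitions, and C863G and G906C are transversions. The 3 sites without a difference are all listed with a C-to-T change. Among the polymorphic sites, 3 are annotated as non-synonymous and 3 as synonymous. In the FAD-binding domain G325A is annotated as a glycine to serine change and C338T as an alanine to valine change, while C399T leaves an asparagine as it is. In the cytokinin-binding domain C863G is annotated as an alanine to glycine change, and G906C and C978T leave a leucine and a tyrosine as they are. Each domain thus had 3 polymorphic sites, with 2 non-synonymous changes in the first and 1 in the second. No effect on enzyme activity was measured.

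The annotated effects fix the reading frame. All 6 are possible under the standard genetic code when a codon starts at the first base of the transcript, and none is possible in the other frames. In this frame the 3 synonymous changes fall at the 3rd place of a codon, C338T and C863G at the 2nd place and G325A at the 1st. C450T and C597T also fall at the 3rd place, where a change from C to T leaves the amino acid the same in all 16 codons that end in C. C904T and G906C are the 1st and the 3rd place of the same codon. The 1 leucine codon that starts with C and ends with G still encodes leucine when it starts with T. The bases listed at C450T and C597T, which neither line carried, would thus be synonymous in this frame. For C904T this holds only beside the reference base of G906C, which e35RM carried. Beside the other base, which e35RD carried, T at the start of this codon would give phenylalanine in place of leucine. These last effects were worked out here from the code and are not part of the annotation.

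As a rough measure of how abundant the transcript was, read depth at the listed sites was compared between the lines. Over the 9 sites it ranged from 26 to 62 reads in e35RM, with a median of 40 and a mean of 43.6, and from 25 to 61 reads in e35RD, with a median of 48 and a mean of 45.6. The depths of the lines overlapped over almost their whole range. The log2 ratio of mean read depth in e35RM over e35RD was −0.06. e35RM was deeper at 4 sites and e35RD at 5. The ratio per site was lowest at C450T, with −0.46 (−1.13 to 0.20), and highest at C597T, with 0.30 (−0.31 to 0.92). At C863G, with 120 reads the deepest site over both lines, 51.7% of the reads came from e35RM (42.4 to 60.9%), or 0.10 on the log2 scale (−0.44 to 0.64). The interval of this share included 50% at all 9 sites, so that no difference in depth was detectable at any of them. Nearby sites share reads, and the intervals are therefore not independent. Depth after removal of duplicates need not follow abundance in proportion, so similar depths do not show equal expression. The paper's own expression analysis is a different measure, with duplicate reads kept. AK355215 is not among the genes it names as differentially regulated. The paper proposes that high variation between biological replicates may explain the low number of such genes.

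The ratio was also taken separately for sites with and without an allele difference. At the 6 polymorphic sites mean depth was 41.7 in e35RM and 43.2 in e35RD, a log2 ratio of −0.05. At the 3 sites where neither line had the other base it was 47.3 and 50.3, a log2 ratio of −0.09. The ratios of these groups of sites were not tested against each other, because nearby sites share reads and the libraries of a line are pooled.

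For comparison, 7432 transcripts had reads in both lines and a mean depth no lower than 20 in one or both. Their log2 ratios had a median of −0.01, and 95% lay between −0.41 and 0.39. AK355215 lay inside this range. The ratio was closer to 0 in 38.1% of these transcripts, and 34.1% had a lower ratio. By its mean depth over both lines, AK355215 was above 65.5% of these transcripts. Depth differs with the sites that happen to be listed, so this order is only a description. In these pools fewer cells with the transcript and less RNA per cell cannot be told apart.

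**Figure D2:**
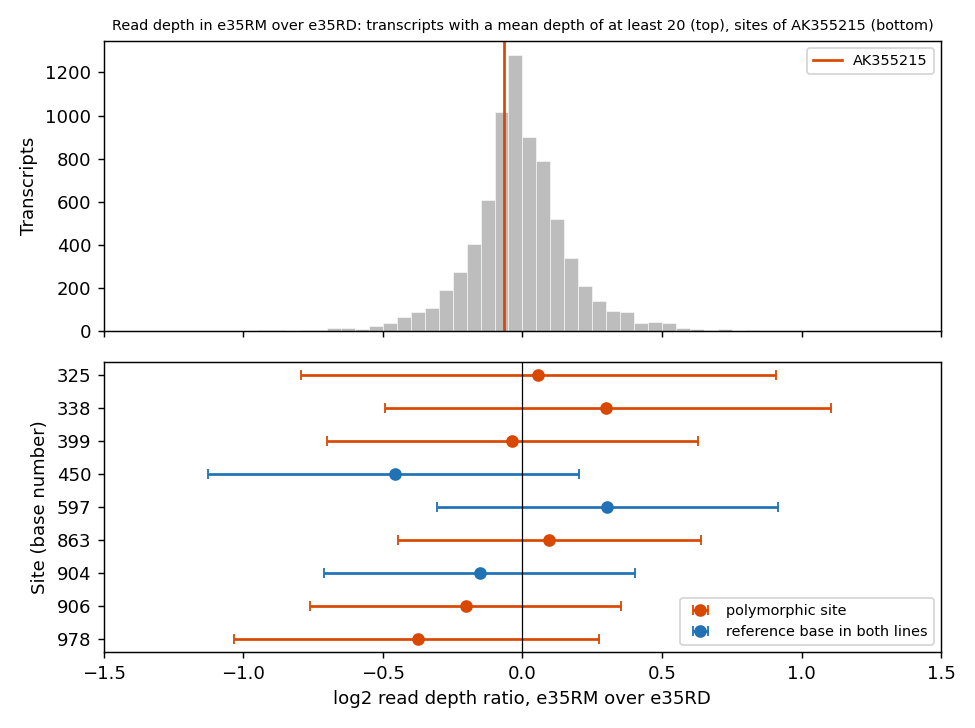
The top panel gives the number of transcripts per log2 ratio of mean read depth in e35RM over e35RD, for the 7432 transcripts of higher depth (3 lie below and 2 above the plotted range), with AK355215 marked at −0.06. The bottom panel gives the ratio at each of the 9 sites with its 95% Clopper-Pearson interval, and all 9 intervals include 0.

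The neighbours of AK355215 on the map were examined to place its differences in the segregating region. The only other transcript listed at 132.649 cM has no site in the table. Within 1 cM, 55 other transcripts are listed, of which 27 have a site in the table and 11 a site that could be used. Of the 22 sites used in these, 3 were polymorphic, at 11 both lines had the reference base, and at 6 both had the other base. At the remaining 2 sites a line was not homozygous. AK355215 itself had 6 polymorphic sites of 9. In 7 of the 11 neighbours the reference base was found in both lines at every site used.

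The nearest polymorphic transcript below AK355215 was MLOC_60812.1 at 132.224 cM, annotated as a 12-oxophytodienoate reductase. It had 1 polymorphic site, A747C, where e35RM had 6 reference reads and e35RD 5 non-reference reads, which was not called by the allele depth test (adjusted p = 1, Fisher's exact test). Next came MLOC_13716.1 at 132.011 cM, a protein phosphatase 2C. It had 2 polymorphic sites, both called, with 34 and 49 reads in e35RM, all with the reference base, and 31 and 48 reads in e35RD, all with the other base. Above AK355215 the next polymorphic transcripts were placed at 133.924 cM, where 22 of 28 sites used were polymorphic in 6 transcripts. Between 132.224 and 133.924 cM, 6 other transcripts are listed. Of these only MLOC_29293.1 has sites in the table, with at most 7 reads. AK355215 was therefore the only transcript in this stretch with a called difference. The nearest polymorphic transcripts on both sides differed in the same direction, with the other base in e35RD. With so few usable sites in between, a change of alleles within the stretch could not be examined.

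**Figure D3:**
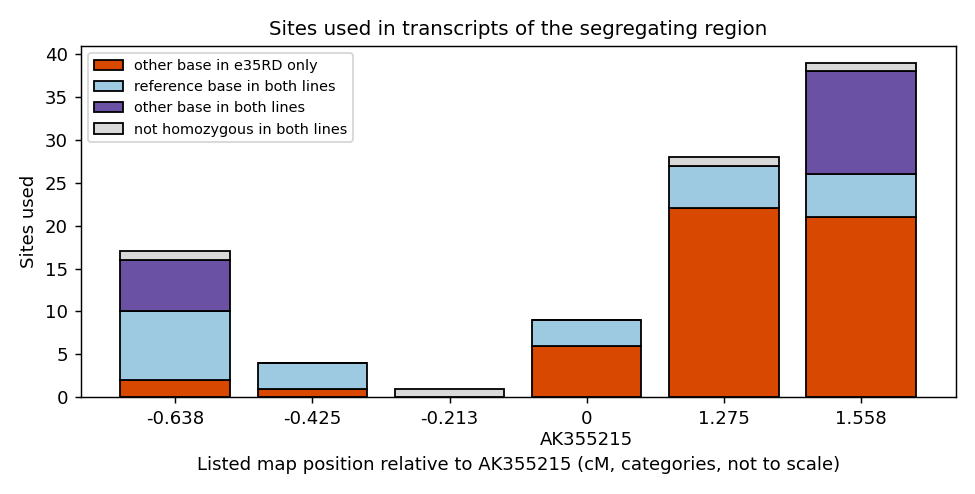
Stacked bars give the number of sites used at each listed map position of the segregating region, as distance in cM from AK355215, divided by the alleles of the NILs. AK355215 has 6 polymorphic sites of 9, the positions below it have 3 of 22, and the positions 1.275 and 1.558 cM above it have 22 of 28 and 21 of 39.

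Transcripts with a similar pattern were sought among the 7949 transcripts with at least 2 sites used. The measure was the share of these sites at which e35RD alone was non-reference, with the number of such sites and the mean depth used for ties, and it rests on 1 pooled column per line. In 7909 of these transcripts the share was 0. AK374634, with 6 polymorphic sites of 9, was the most similar, although its mean depth was lower, with 16.6 reads in e35RM and 17.8 in e35RD. AK249008.1 followed, with 4 of 6 sites, of which 2 were called by the allele depth test, and then AK358955, with 2 of 3 sites. AK374634 and AK249008.1 are both placed at 133.924 cM in the same segregating region, and AK358955 is not listed there. That list holds placed transcripts only, and the paper also found polymorphic genes without a map position. Absence from the list therefore does not place AK358955 elsewhere in the genome. None of these transcripts had more than 6 polymorphic sites of this kind.

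The polymorphic sites of AK355215 had a higher median depth than those of other transcripts, but such depth was not particular to this gene. The lower depth of the lines had a median of 38.5 reads at these 6 sites (25 to 58). It had a median of 24 at 46 polymorphic sites in other transcripts of the region, with a highest value of 56. In transcripts not listed in the region the lower depth had a median of 6, at 107 sites with opposite homozygous calls in either direction. Its highest value there was 60. These transcripts include AK358955, whose mean depth of 68.7 reads in e35RM and 59.3 in e35RD was above that of AK355215. The lower genotype quality had medians of 99, 70.5 and 3 in these 3 sets of sites, respectively. The non-reference share differed by 97.9 percentage points at C978T and by 100 at the other 5 sites of AK355215, and the 46 sites in other transcripts of the region had the same median of 100 (85.7 to 100). At the sites that are not listed in the region the median was 40 (0 to 100). These values are descriptions, since the sites of a transcript share reads.

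Cytokinins act through receptor kinases and phosphotransfer proteins on response regulators, and the gene list of the region was searched for further members of this pathway. Only MLOC_12999.1, an HC gene at 133.924 cM annotated as a response regulator of the type that activates cytokinin target genes in Arabidopsis, was found beside AK355215. It has 0 sites in the table, so neither its alleles nor its depth could be compared. Cytokinin genes outside this list were not analysed here, because no names were at hand for their identifiers.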

How the data were processed

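Single-end reads had been trimmed by the authors (Trimmomatic), aligned to the barley HC and LC genes (Bowtie2), freed of duplicates (Picard) and used for variant calling and filtering (GATK). They deposited 1 table in which the 4 libraries of a line are pooled. Read depths are deposited as counts of reads without normalization, and genotype quality is a score from the authors' caller. The 5 columns of a Morex sample are not from these libraries and were not used.

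Genotypes that a spreadsheet had turned into dates were decoded, and lost zeros of allele depths were restored with the read depth. At all 9 sites of AK355215 the allele depths summed to the read depth in both lines. The decoding and the test were tested on simulated data. Sites used were SNP sites with the filter passed and a read depth of 5 or more in both lines. Allele depths were compared by two-sided Fisher's exact tests (scipy 1.17.1) with Benjamini-Hochberg adjustment over 39013 sites. Depth ratios were not scaled and used passing SNP sites for which one or both lines had a read depth of 5 or more. Map positions, protein domains and amino acid changes were taken from the authors' tables. By the naming rule, AK355215, its neighbours within 1 cM with the nearest polymorphic transcripts, the pathway words and the 3 most similar transcripts are named. The gene, the lists and the rules were chosen with earlier results of these data known. Alternatives tried were a minimum depth of 1, 10 or 20 reads, a minimum genotype quality of 20 or 60, all filter values, insertions and deletions added, other share limits, Bonferroni adjustment and other forms of the depth ratio. No transcript or protein sequence was used.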

Additional observations from a re-analysis of the deposited data

How the results depend on the processing

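The count of polymorphic sites in AK355215 and the count of sites called by the allele depth test were 6 under every alternative tried for each, and the largest adjusted p of these sites (Fisher's exact test) ranged from 2.6e-12 to 1.6e-10. All 9 sites of the gene are passing SNP sites with at least 25 reads and a genotype quality of at least 75 in both lines. The alternatives for depth, genotype quality, filter values, and insertions and deletions kept the same sites of the gene and could not change these counts. Over the whole table the test called between 36 and 67 sites under these alternatives, against 50. The log2 depth ratio of −0.06 moved between −0.11 and −0.02 when each site was left out in turn and was −0.03 as a median per site with 1 read added. It was −0.06 after scaling, −0.09 without the polymorphic sites and −0.05 with these alone, the last an alternative chosen after seeing the data. The alternatives for depth and filter values kept all 9 sites and could not change this ratio. All of these values lie within the counting interval of C863G, the deepest site over both lines. That interval, −0.44 to 0.64, is so wide that these alternatives could hardly have left it. No paired analysis was possible because each line has a single column for its 4 libraries, and no library could be left out. The depth of 25 to 62 reads per line limits the shares and depth differences that could be seen.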
